A study of Mus musculus with 6 samples.

Results

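The genes described here are 50 genes of mitosis and the spindle, taken by symbol from a fixed list of genes that act in the G2 and M phases, at the kinetochore, on spindle microtubules or in cytokinesis. All 50 were found once each among the 55573 genes of the count table, and all 50 were abundant enough to be tested. The samples are LSK cells, which are bone marrow cells without lineage markers that carry Sca-1 and c-Kit, from C57BL/6J mice at 3 months of age. There are 3 libraries from Etv6 R355X/+ mice, which carry the R355X allele of the ETS-family repressor Etv6 on one chromosome, and 3 libraries from wild-type mice (Etv6+/+). The genotype field of the labels gives the mutant as Etv6+/-. How the allele was made, and whether a library holds cells of one or several animals, is not given in the sources used here, and no treatment is named for either group.

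Mitosis is driven by cyclin-dependent kinase 1 with its A- and B-type cyclins, and ends when the anaphase-promoting complex marks cyclin B and securin for destruction. Kinetochores join chromosomes to spindle microtubules, the spindle checkpoint holds back anaphase until every kinetochore is attached, and motor proteins then separate the chromosomes and build the cleavage furrow. Transcripts of these genes accumulate late in the cell cycle and are low in resting cells. Within the LSK fraction long-term stem cells are largely quiescent, unlike many multipotent progenitors. Which cells supplied these transcripts in the samples was not measured. In bulk RNA, fewer dividing cells and less of a transcript per dividing cell cannot be told apart.

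Depth ranged from 45194733 to 92151105 expected counts in the Etv6 R355X/+ libraries and from 47866157 to 60776281 in the wild-type libraries. Etv6 measured 305, 341 and 386 CPM (counts relative to a common library size, scaled by TMM factors) in Etv6 R355X/+ libraries 1, 2 and 3, against 454, 419 and 400 CPM in wild-type libraries 1, 2 and 3, so the genotypes did not overlap (edgeR quasi-likelihood test, log2 fold change -0.30, SE 0.086, adjusted p = 0.245). The gate genes were present in every library, with Kit at 351 to 393 CPM in Etv6 R355X/+ and 385 to 451 CPM in wild type, and Ly6a, which encodes Sca-1, at 75.9 to 81.3 CPM and 71.7 to 93.5 CPM. Of 8 gate genes, 7 lay below 0 in Etv6 R355X/+ relative to wild type, with a median log2 fold change of -0.14. At an unadjusted p under 0.05 in edgeR's test 3 were lower, where 10.6% of all genes passed in either direction. After adjustment 0 of the 8 gate genes passed. Their library medians were -0.16, -0.11 and -0.0092 log2 in Etv6 R355X/+ libraries 1, 2 and 3 and 0.17, 0.16 and -0.085 in wild-type libraries 1, 2 and 3. Transcripts of lineage-positive cells were not absent. Summed over 10 B cell markers the level was 2330 to 2734 CPM in Etv6 R355X/+ and 1445 to 2256 CPM in wild type. Over 10 neutrophil markers it was 2198 to 3713 and 2811 to 3246 CPM, and over 10 macrophage and monocyte markers 186 to 242 and 208 to 290 CPM. Over 10 T and natural killer cell markers it was 130.4 to 171 and 115 to 140 CPM, over 8 mast cell, basophil and eosinophil markers 128 to 138 and 106 to 111 CPM, and over 8 megakaryocyte markers 160 to 191 and 206 to 219 CPM. At an unadjusted p under 0.05 in edgeR's test, which 10.6% of all genes reached, 9 B cell markers were higher in Etv6 R355X/+, as were 6 macrophage, 6 mast cell, basophil and eosinophil, 1 T or natural killer cell and 1 megakaryocyte marker, while 1 macrophage and 1 megakaryocyte marker were lower. After adjustment 1 T or natural killer cell marker and 1 mast cell, basophil or eosinophil marker passed, against 0.266% of all genes, and no marker of these 6 lists was at 0 in all libraries. Their part in the levels of mitotic genes was not tested. Wild-type replicate 3 stood apart from the other wild-type libraries in the mitotic genes, and the comparison is given with and without it.

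Transcripts of the mitotic machinery were present at much the same level in Etv6 R355X/+ and wild-type LSK cells. Of the 50 genes, 0 passed the adjusted threshold of 0.05 in edgeR's quasi-likelihood test, where 0.266% of all 20646 genes tested did. At an unadjusted p under 0.05 the test marked 1 gene, Pttg1, or 2.00% of the list against 10.6% of all genes. DESeq2 called 1 gene past its adjusted threshold, again Pttg1, against 1.89% of all genes it adjusted, and limma-voom called 0. The median log2 fold change of the 50 genes was 0.020, beside 0.0019 over all genes tested, and 32 genes (64.0%) lay above 0 and 18 below, where 50.6% of all genes lay above. The count above 0 was 18 with library size as the only scaling. It was 20 without Etv6 R355X/+ replicate 1, 14 without wild-type replicate 1 and 15 without wild-type replicate 2. It rose to 49 without wild-type replicate 3, and to 48 without that library and Etv6 R355X/+ replicate 1 together. In the remaining alternatives it ran from 31, without Etv6 R355X/+ replicate 3, to 38, with limma-voom. The intervals bounded the difference between these libraries, which the labels do not say come from separate animals. The 95% interval of 49 of the 50 genes lay wholly within a 1.5-fold change in either direction, which held for 54.2% of all genes tested. The exception was Pttg1, whose interval reached above 1.5-fold. Excluding Pttg1, log2 fold changes ran from -0.18 for Cdc20 to 0.21 for Ccnb2 and the smallest unadjusted p was 0.0736, for Racgap1 (edgeR quasi-likelihood test, adjusted p = 0.527).

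**Figure D1:**
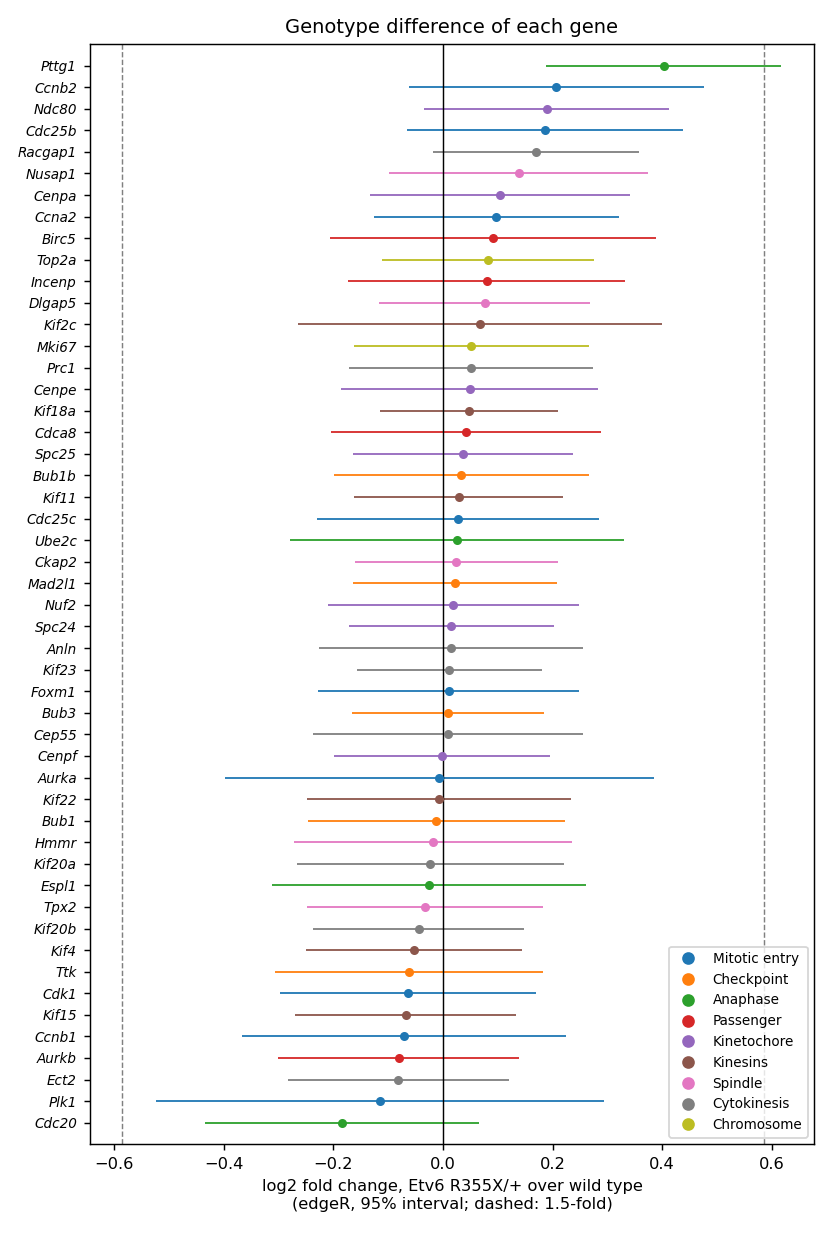
Log2 fold change of each of the 50 genes, Etv6 R355X/+ over wild type, on the horizontal axis, with the 95% interval of the edgeR fit as a bar and colours for the role groups; dashed lines mark 1.5-fold in each direction. Pttg1, at 0.40, is the one gene whose interval crosses a dashed line, and the intervals of the other genes include 0.

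Promoters of mitotic genes are known for shared elements, so the sequence around their starts is shown first. The cell cycle genes homology region (CHR), with the core TTTGAA, is bound by the MuvB complex, which represses these genes in resting cells and, with B-Myb and FOXM1, drives them in G2. The CCAAT box is bound by the activator NF-Y and often lies upstream of it. RefSeq promoter windows of 300 bases, from 250 before to 50 after the transcription start (build GRCm38.p6), were matched by symbol for 41 of the 50 genes. TTTGAA on either strand was found for 31 of the 41 (75.6%), against 20.2% of the 27025 genes in the table. CCAAT on either strand was found for 29 (70.7%), against 41.1%, and both together for 25 (61.0%), against 7.97%. The variant TTCGAA was found for 4 (9.76%), against 1.80%. A TTTGAA lying wholly within 50 bases of the start, a range chosen after the positions were seen, was found for 28 (68.3%), against 5.72%. Of the 45 matches in the 45 windows (4 genes have 2 windows), 33 lay within those 50 bases and 31 read TTTGAA on the strand of the gene. A match is a description of the letters and not evidence of binding. The core was less frequent in the windows of other cell cycle genes, with 27 of 59 for other G2 and M genes (45.8%) and 3 of 31 for DNA replication genes (9.68%).

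**Figure D2:**
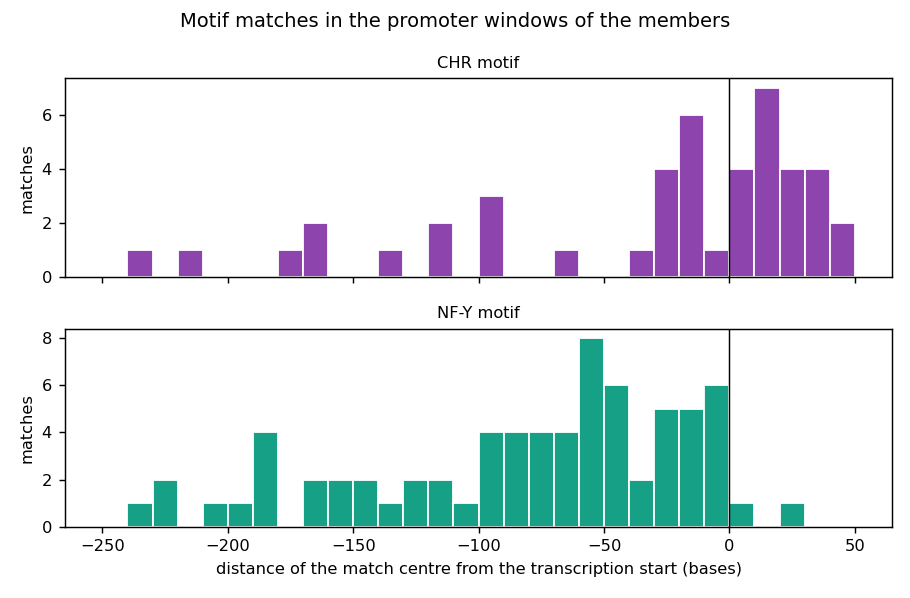
Number of matches (vertical axis, in bins of 10 bases) by distance of the match centre from the transcription start (horizontal axis, in bases) in the windows of the 41 matched genes, for the CHR core (upper panel) and the CCAAT box bound by NF-Y (lower panel). Of the 45 CHR matches, 33 lie within 50 bases of the start, while the NF-Y matches lie before it apart from 2 of 71. Matches are counted per window, so a site in overlapping windows of a gene is counted more than once.

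The windows of 6 genes with the core are shown to make the arrangement visible, with that of Pttg1, the gene that differed from the rest, added after its values were seen. Capitals mark TTTGAA or its reverse complement TTCAAA, and CCAAT or its reverse complement ATTGG. The windows lie at chr9:70421505-70421804 for Ccnb2 (minus strand), chr4:118437294-118437593 for Cdc20 (minus strand), chr11:99024140-99024439 for Top2a (minus strand), chr10:69352863-69353162 for Cdk1 (minus strand), chr7:135716330-135716629 for Mki67 (minus strand), chr19:34922108-34922407 for Kif20b (plus strand) and chr11:43425932-43426231 for Pttg1 (minus strand).
Ccnb2: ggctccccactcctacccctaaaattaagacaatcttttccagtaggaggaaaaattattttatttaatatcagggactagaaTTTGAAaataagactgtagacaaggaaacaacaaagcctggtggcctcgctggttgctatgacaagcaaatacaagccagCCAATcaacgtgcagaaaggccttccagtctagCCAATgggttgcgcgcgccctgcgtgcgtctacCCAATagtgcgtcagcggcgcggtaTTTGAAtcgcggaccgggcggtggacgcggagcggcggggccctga
Cdc20: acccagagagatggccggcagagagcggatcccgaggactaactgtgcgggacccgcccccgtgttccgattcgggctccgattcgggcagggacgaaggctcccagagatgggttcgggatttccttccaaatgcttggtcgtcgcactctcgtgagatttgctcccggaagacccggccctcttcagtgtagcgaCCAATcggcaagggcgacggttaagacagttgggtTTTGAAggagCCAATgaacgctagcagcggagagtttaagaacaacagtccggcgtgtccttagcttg
Top2a: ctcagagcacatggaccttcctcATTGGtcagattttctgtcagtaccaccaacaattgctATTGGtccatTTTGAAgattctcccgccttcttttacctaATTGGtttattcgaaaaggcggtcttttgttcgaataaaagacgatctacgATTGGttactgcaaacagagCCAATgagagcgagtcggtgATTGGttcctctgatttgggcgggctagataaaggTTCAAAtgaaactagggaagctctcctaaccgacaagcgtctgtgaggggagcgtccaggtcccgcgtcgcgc
Cdk1: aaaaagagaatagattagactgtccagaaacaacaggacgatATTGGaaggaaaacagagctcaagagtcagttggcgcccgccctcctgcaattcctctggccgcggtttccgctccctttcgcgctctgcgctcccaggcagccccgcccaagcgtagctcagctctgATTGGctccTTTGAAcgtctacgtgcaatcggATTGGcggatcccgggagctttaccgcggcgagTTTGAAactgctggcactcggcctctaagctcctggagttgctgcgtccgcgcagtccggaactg
Mki67: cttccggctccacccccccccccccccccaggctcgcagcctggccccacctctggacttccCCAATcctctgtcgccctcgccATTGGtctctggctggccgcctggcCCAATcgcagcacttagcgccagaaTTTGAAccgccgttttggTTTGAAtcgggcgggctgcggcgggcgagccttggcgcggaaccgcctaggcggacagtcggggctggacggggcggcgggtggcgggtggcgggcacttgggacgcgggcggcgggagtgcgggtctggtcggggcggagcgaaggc
Kif20b: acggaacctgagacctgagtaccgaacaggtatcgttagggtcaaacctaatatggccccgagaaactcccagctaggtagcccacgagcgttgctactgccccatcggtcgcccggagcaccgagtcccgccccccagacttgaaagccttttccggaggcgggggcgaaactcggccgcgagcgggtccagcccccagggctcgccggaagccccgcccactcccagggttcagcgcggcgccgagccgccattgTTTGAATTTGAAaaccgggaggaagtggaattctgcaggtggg
Pttg1: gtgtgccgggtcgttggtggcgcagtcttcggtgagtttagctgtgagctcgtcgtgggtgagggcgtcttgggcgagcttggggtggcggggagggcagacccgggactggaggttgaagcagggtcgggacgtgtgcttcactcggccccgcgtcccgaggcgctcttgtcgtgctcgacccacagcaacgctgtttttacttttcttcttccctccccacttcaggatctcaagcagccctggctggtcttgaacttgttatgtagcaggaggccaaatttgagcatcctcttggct
Ccnb2 shows 3 CCAAT boxes between an upstream CHR core and one just past the start, Cdk1 and Top2a each have 2 cores with one just before the start, Mki67 has 2 CHR cores upstream of it, and Kif20b has 2 cores back to back and no CCAAT. The Pttg1 window holds neither motif, which says only that these letters are not in this window. That window lies wholly inside the annotated gene, which spans 43420250 to 43426251. The other printed windows reach upstream of the annotated start of their genes. The sequence upstream of the annotated start of Pttg1 was not examined.

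Mki67 and Top2a, the usual marks of dividing cells, were by far the most abundant of the 50 per length. Levels per kilobase of exon ranged from 3.25 CPM per kb for Cdc25c to 142 CPM per kb for Mki67, with a median of 13.6, against a median of 2.82 CPM per kb over 20633 genes with a length. Mki67, whose protein coats mitotic chromosomes, measured 1536, 1408 and 1408 CPM in Etv6 R355X/+ libraries 1, 2 and 3, against 1333, 1229 and 1636 CPM in wild-type libraries 1, 2 and 3. The wild-type values enclosed all 3 mutant values, and Mki67 stood at 104% of wild type with a 95% interval from 89.3% to 120% (log2 fold change 0.052, SE 0.097). Top2a, the topoisomerase that untangles sister chromatids, averaged 705 ± 53.6 CPM in Etv6 R355X/+ and 666 ± 77.4 CPM in wild type (SD, n = 3), at 106% of wild type with an interval from 92.5% to 121%. At 78.2 CPM per kb in Etv6 R355X/+ and 73.9 CPM per kb in wild type it came next after Mki67. Ccnb2 followed over all 6 libraries, at 41.8 CPM per kb in Etv6 R355X/+ and 36.3 CPM per kb in wild type, close to Ccna2 at 39.3 and 36.7 CPM per kb. The lowest per length were Cdc25c, Kif18a and Espl1, at 3.25, 3.96 and 4.09 CPM per kb over all 6 libraries. Together the 50 genes took 0.562% to 0.617% of scaled counts in Etv6 R355X/+ libraries and 0.510% to 0.663% in wild-type libraries.

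**Figure D3:**
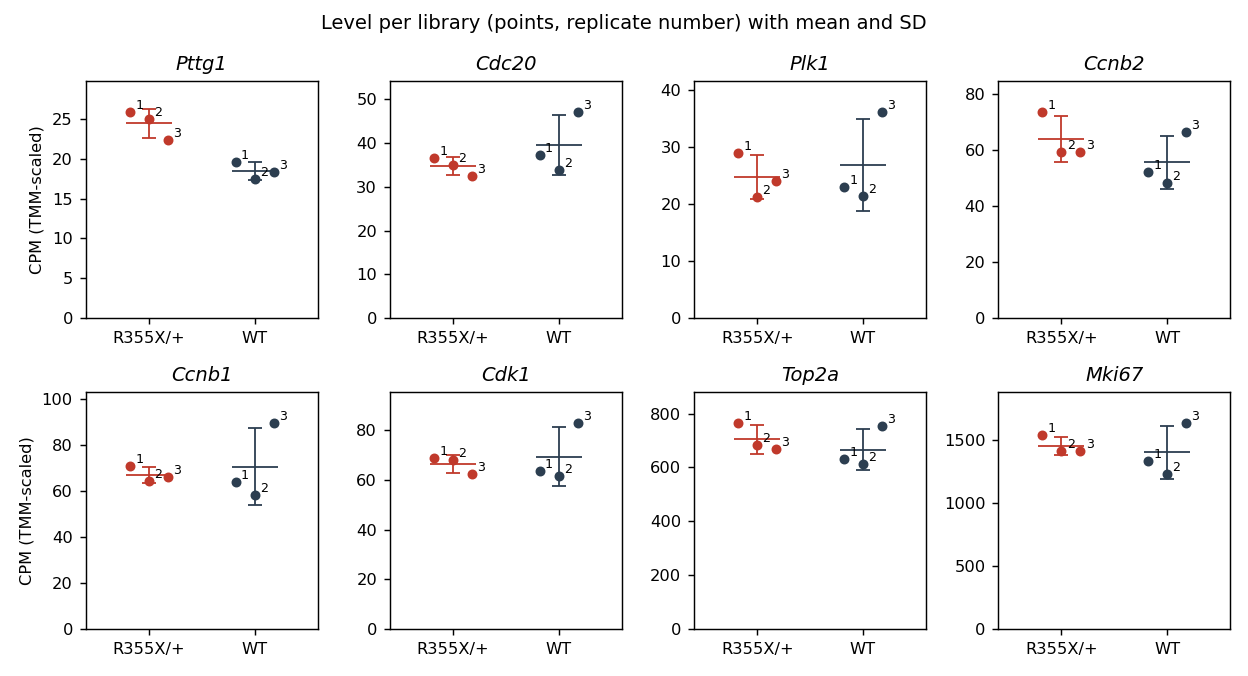
CPM of 8 of the genes in each library (points, numbered by replicate) with the mean and SD of each genotype (n = 3), Etv6 R355X/+ left and wild type right; vertical axes start at 0. Pttg1 is the gene without overlap, with 22.4 to 25.9 CPM in Etv6 R355X/+ and 17.5 to 19.6 CPM in wild type, and in the other panels wild-type replicate 3 is the highest wild-type point.

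Among the 9 genes of mitotic entry, 5 lay above 0 and 4 below, and 0 had an unadjusted p under 0.05. Cdk1, the kinase that drives entry, measured 68.8, 68.0 and 62.3 CPM in Etv6 R355X/+ libraries 1, 2 and 3, against 63.8, 61.5 and 83.1 CPM in wild-type libraries 1, 2 and 3. Its partner Ccnb1 (cyclin B1) measured 71.0, 64.2 and 66.0 CPM in Etv6 R355X/+, against 63.9, 58.0 and 89.7 CPM in wild type. For both genes wild-type library 3 was the highest; all 3 Etv6 R355X/+ values of Ccnb1 lay above wild-type libraries 1 and 2, while that of Cdk1 in Etv6 R355X/+ library 3 lay between them. Ccnb2 (cyclin B2) measured 73.6, 59.4 and 59.2 CPM in Etv6 R355X/+, against 52.3, 48.1 and 66.3 CPM in wild type (log2 fold change 0.21, SE 0.12, adjusted p = 0.60, edgeR quasi-likelihood test). The phosphatases that release Cdk1 from inhibition, Cdc25b and Cdc25c, stood at log2 fold changes of 0.19 and 0.028. Foxm1, the transcription factor of many of these genes, averaged 59.8 ± 5.08 CPM in Etv6 R355X/+ and 59.4 ± 9.31 CPM in wild type (SD, n = 3). The mitotic kinase Plk1 had the largest standard error of the 50 genes (0.18), at 28.9, 21.3 and 24.0 CPM in Etv6 R355X/+ and 22.9, 21.4 and 36.1 CPM in wild type.

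The 5 spindle checkpoint genes had log2 fold changes from -0.062 for the kinase gene Ttk to 0.033 for Bub1b. Bub1b encodes the inhibitor of the anaphase-promoting complex, and was the most abundant of them per length. It measured 91.7, 81.1 and 88.3 CPM in Etv6 R355X/+ and 77.0, 76.5 and 102 CPM in wild type. Bub3, Mad2l1 and Bub1 had log2 fold changes of 0.0093, 0.021 and -0.012. The genotypes overlapped in all 5 genes.

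The anaphase group held both extremes of the list. Pttg1 encodes securin, the inhibitor of separase that must be destroyed before sister chromatids part. It measured 25.9, 25.0 and 22.4 CPM in Etv6 R355X/+ libraries 1, 2 and 3, against 19.6, 17.5 and 18.3 CPM in wild-type libraries 1, 2 and 3. Every mutant value lay above every wild-type value, as it did for 8.45% of all genes tested, and Pttg1 was the only one of the 50 genes without overlap. It stood at 132% of wild type, with a 95% interval from 114% to 153% (log2 fold change 0.40, SE 0.097). The unadjusted p was 0.00174 and the adjusted p 0.170 in edgeR's quasi-likelihood test, so it did not pass over all genes, while DESeq2 gave an adjusted p of 0.0154. An exact two-sided permutation test of its 6 values gave p = 0.1, the smallest that 3 against 3 allow. Its partner Espl1, separase, measured 39.4, 35.1 and 31.8 CPM in Etv6 R355X/+ and 33.1, 31.1 and 44.1 CPM in wild type, with a log2 fold change of -0.026. Cdc20, the activator that turns the anaphase-promoting complex on securin and cyclin B, was at the other end, with 36.6, 35.1 and 32.6 CPM in Etv6 R355X/+ and 37.4, 33.9 and 47.1 CPM in wild type. The Cdc20 genotypes overlapped (log2 fold change -0.18, SE 0.11, adjusted p = 0.617, edgeR quasi-likelihood test). Ube2c, the ubiquitin-conjugating enzyme of that complex, measured 100.3, 78.6 and 83.1 CPM in Etv6 R355X/+ and 76.5, 73.8 and 107 CPM in wild type.

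Pttg1 lies on chromosome 11 from 43420250 to 43426251 in mm10, on the minus strand, and overlaps no other annotated gene. Within 250000 bases of it 3 other genes were tested, and none had an unadjusted p under 0.05 in edgeR's test. The nearest, Slu7, had a log2 fold change of 0.0019. Of the 50 genes, 15 share exon bases with another annotated gene, among them Cdc20 with Elovl1, Nusap1 with Oip5, Kif20a with Cdc23 and Ccna2 with Exosc9, and counts without strand cannot tell reads of such pairs apart.

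The 4 genes of the chromosomal passenger complex, which corrects faulty attachments, had log2 fold changes from -0.081 for the kinase Aurkb to 0.092 for Birc5, which encodes survivin. Aurkb measured 71.9, 68.8 and 68.8 CPM in Etv6 R355X/+ and 67.5, 66.4 and 87.8 CPM in wild type. Of the 7 centromere and kinetochore genes, 6 lay above 0 and Cenpf was at -0.0017. Cenpe, a kinesin that moves chromosomes to the metaphase plate, measured 163, 156 and 161 CPM in Etv6 R355X/+ and 144, 133 and 187 CPM in wild type. Ndc80, which binds microtubules, had the largest log2 fold change of the group at 0.19 (SE 0.10, adjusted p = 0.553 in edgeR's quasi-likelihood test). Nuf2, Spc24 and Spc25, its partners in the Ndc80 complex, stood at 0.019, 0.015 and 0.036.

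The 6 spindle and chromosome kinesins ranged from -0.068 for Kif15 to 0.067 for Kif2c. Kif11, the motor that pushes the spindle poles apart, was the most abundant per length and measured 280.4, 258 and 279 CPM in Etv6 R355X/+ against 253, 241 and 306 CPM in wild type. Kif18a, which dampens chromosome oscillations, had the narrowest interval of the 50 genes, and averaged 39.6 ± 1.16 CPM in Etv6 R355X/+ and 38.3 ± 2.48 CPM in wild type (SD, n = 3). The 5 spindle proteins ranged from -0.032 for Tpx2, the activator of Aurora A, to 0.14 for Nusap1, which bundles microtubules and measured 111, 92.4 and 97.8 CPM in Etv6 R355X/+ and 88.6, 78.8 and 107 CPM in wild type. In cytokinesis, 8 genes ranged from -0.081 for Ect2, which acts at the cleavage furrow, to 0.17 for its partner Racgap1. Racgap1 measured 66.9, 60.1 and 61.2 CPM in Etv6 R355X/+ against 51.5, 53.0 and 62.9 CPM in wild type. Kif20b, a kinesin of late cytokinesis and the most abundant of them per length, measured 114, 108 and 112 CPM in Etv6 R355X/+ and 105, 107 and 133 CPM in wild type.

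**Figure D4:**
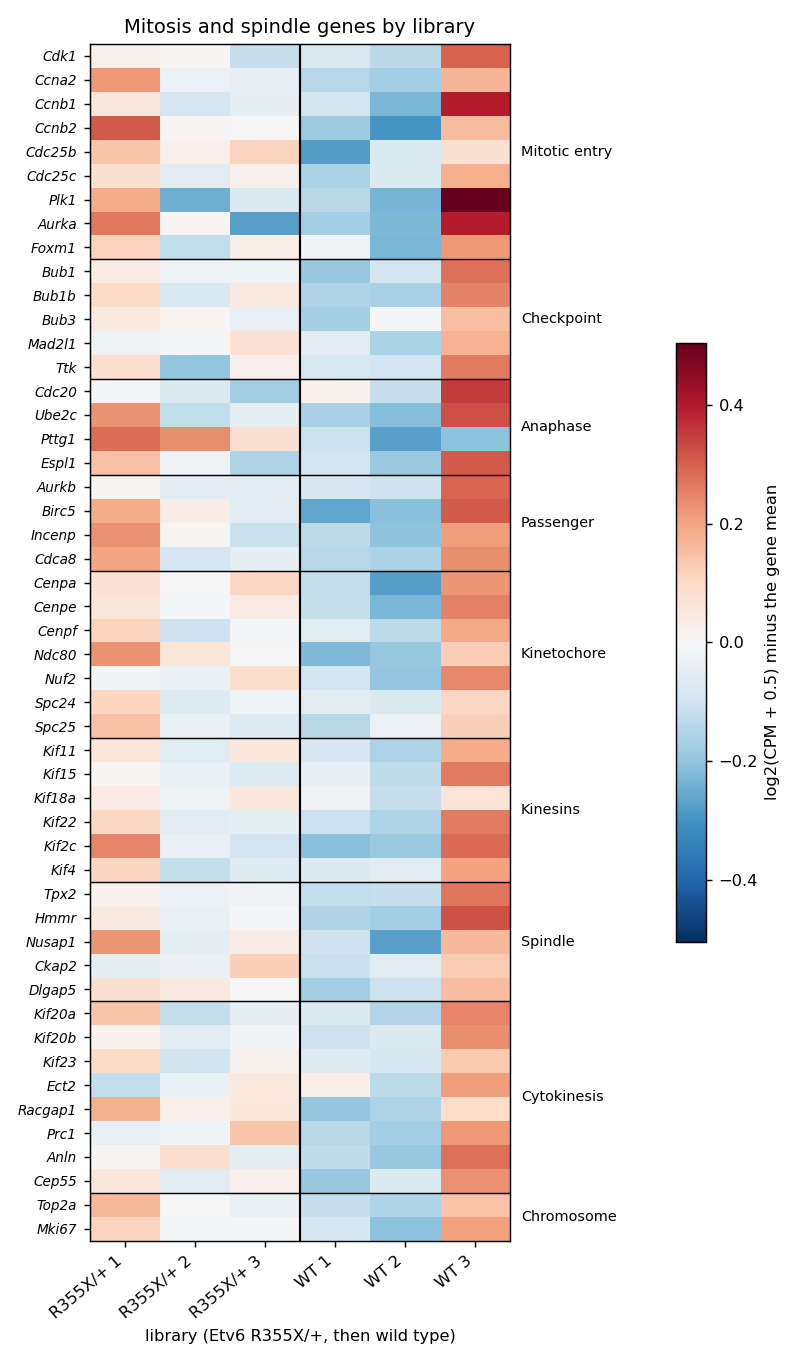
Each cell is the log2(CPM + 0.5) of a gene (rows, ordered by role) in a library (columns, Etv6 R355X/+ left of the line and wild type right) minus that gene's mean over the 6 libraries; red is above and blue below the mean. Wild-type replicate 3 is the highest library for 39 of the 50 genes and Etv6 R355X/+ replicate 1 for the other 11, while Pttg1 alone is below its mean in all 3 wild-type libraries.

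The libraries of one genotype differed more than the genotypes did, and the genes moved together. Wild-type replicate 3 held the highest of the 6 values for 39 of the 50 genes (78.0%), against 18% of all genes tested, and Etv6 R355X/+ replicate 1 for the other 11, against 24.4%. The lowest value lay in wild-type replicate 2 for 30 genes, against 15.1% of all genes, and in wild-type replicate 1 for 14, against 15.6%. Within wild type, replicate 3 was the highest for 49 genes, the exception being Pttg1, against 36.9% of all genes. Its ratio to the mean of wild-type replicates 1 and 2 had a median of 1.28 over the list and 0.998 over all genes. The ratio ran from 1.10 for Kif18a to 1.63 for Plk1 over the 49 genes, and was 0.987 for Pttg1. Other genes with a high ratio were Aurka at 1.52, Ccnb1 at 1.47 and Birc5 at 1.46, all named after their values were seen. The SD was larger in wild type than in Etv6 R355X/+ for 49 genes, against 45.9% of all genes. Genes with and without TTTGAA in their window had close medians of this ratio, 1.29 over 31 and 1.29 over 10 genes.

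**Figure D5:**
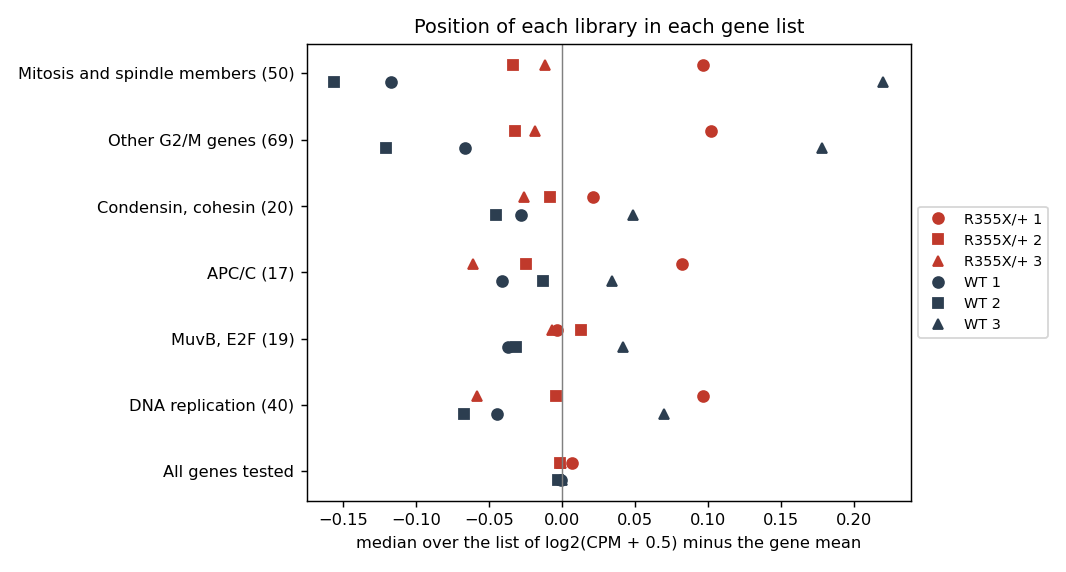
Median over each gene list (rows, with the number of genes tested) of log2(CPM + 0.5) minus the gene mean, for each Etv6 R355X/+ library (red, upper points) and each wild-type library (dark, lower points). Among the 6 cell cycle lists drawn (cell type markers are not shown), the 50 mitosis and spindle genes have the widest spread between libraries, from -0.16 in wild-type replicate 2 to 0.22 in wild-type replicate 3, and all libraries lie close to 0 over all genes tested.

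Wild-type replicate 3 is singled out because it was the highest wild-type library for 49 of the 50 genes. Leaving it out therefore lowers the wild-type mean of these genes by construction. The genes also moved together, so counts of them are not counts of separate results. Without wild-type replicate 3 the mitotic genes leaned towards the mutant. In that fit 49 of the 50 genes lay above 0, against 51.4% of all genes, the exception being Cdc20, and the median log2 fold change was 0.14. Of the 50 genes, 19 had an unadjusted p under 0.05, all of them higher in Etv6 R355X/+, against 5.66% of all genes in that direction, and 0 passed the adjusted threshold in edgeR's quasi-likelihood test, as 0.211% of all genes did. They included Ndc80 (log2 fold change 0.31), Birc5 (0.30), Racgap1 (0.26), Cenpa (0.26), Ccnb2 (0.35) and Mki67 (0.18), with Pttg1 at 0.40. Leaving out Etv6 R355X/+ replicate 1 as well gave 18 genes, against 4.86% of all genes in that direction, and a median of 0.11, with 0 past the adjusted threshold in edgeR's test, as 0.269% of all genes were. Marker genes moved in the same fit. The 8 gate genes had a median of -0.22. In edgeR's test 6 of them were lower at an unadjusted p under 0.05 and 1 passed the adjusted threshold. The share of all genes lower at that unadjusted threshold is not given. The 16 erythroid markers had a median of 0.40, with 1 past the adjusted threshold. The 10 B cell markers had a median of 1.01, with 9 higher at an unadjusted p under 0.05 in edgeR's test. The median was 0.64 over the 8 mast cell, basophil and eosinophil markers and 0.31 over the 8 megakaryocyte markers. It was 0.29 over T and natural killer cell, 0.41 over macrophage and monocyte and -0.011 over neutrophil markers. The mast cell, megakaryocyte and T cell lists each had 1 gene past the adjusted threshold, and the macrophage, neutrophil and B cell lists 0. The part of these markers in the result was not tested. The sign of the list's median turned in other alternatives. With library size as the only scaling it was -0.015, where the median of all genes shifted by -0.036. It was -0.026 without Etv6 R355X/+ replicate 1, -0.026 without wild-type replicate 1 and -0.038 without wild-type replicate 2. Pttg1 kept its direction, with log2 fold changes from 0.35 to 0.46, in every alternative run.

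Erythroid transcripts were also highest in wild-type replicate 3. Their library medians, relative to each gene's mean over the 6 libraries, were 0.32, 0.16 and -0.71 log2 in Etv6 R355X/+ libraries 1, 2 and 3 and -0.22, -0.48 and 0.60 in wild-type libraries 1, 2 and 3. Of the 16 erythroid markers 10 were highest in wild-type replicate 3, the summed level was 497 to 744 CPM in Etv6 R355X/+ and 508 to 822 CPM in wild type, and none was at 0 in all libraries. Between genotypes, with all 6 libraries, the median log2 fold change of the 16 was -0.17. Of these markers 6 lay above 0 and 10 below, down to -0.50 for Slc4a1. The median of 0.40 given above, without wild-type replicate 3, thus has the opposite sign. Past the adjusted threshold in edgeR's test with all libraries, 2 of the 16, both globin genes, were higher in Etv6 R355X/+. That threshold was passed by 0.266% of all genes in either direction. The part of erythroid cells in the level of mitotic genes was not tested.

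Other genes of the cell cycle did not differ between genotypes past the adjusted threshold either. Outside the list 69 other G2 and M genes were tested by edgeR, and 0 passed at either the adjusted or the unadjusted threshold; the median log2 fold change was 0.016, and 39 were highest in wild-type replicate 3. Without that library the median of the 69 genes was 0.11, with 0 past the adjusted threshold. In that fit 11 were higher in Etv6 R355X/+ at an unadjusted p under 0.05 in edgeR's test, against 5.66% of all genes in that direction. The genes with the smallest p among them were Arhgap11a, Cdca3 and Dsn1, at 0.18, 0.21 and -0.20. Of 20 condensin and cohesin genes and 17 genes of the anaphase-promoting complex, 0 had an unadjusted p under 0.05, with medians of -0.014 and 0.010. Esco1, Wapl and Rad21 in the first and Anapc7, Anapc1 and Anapc16 in the second had the smallest p, with log2 fold changes of 0.17, -0.098 and 0.10 and of 0.15, -0.084 and 0.11. Of 40 DNA replication genes, 0 had an unadjusted p under 0.05, with a median of 0.046; Pcna, Dut and Chaf1a had the smallest p, at 0.16, 0.15 and -0.15. Wild-type replicate 3 was highest for 14 of these 40 (35.0%), and its ratio to the other wild-type libraries had a median of 1.08.

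Among 19 regulators of late cell cycle promoters (MuvB, Myb, retinoblastoma and E2F families), 0 passed and 1 had an unadjusted p under 0.05 in edgeR's test, against 10.6% of all genes. E2f2, an E2F activator, measured 43.8, 31.6 and 28.6 CPM in Etv6 R355X/+ libraries 1, 2 and 3, against 26.5, 20.0 and 28.4 CPM in wild-type libraries 1, 2 and 3, and the lowest Etv6 R355X/+ value lay just above the highest wild-type value (log2 fold change 0.47, SE 0.17, adjusted p = 0.359, edgeR quasi-likelihood test). Every mutant value lay above every wild-type value for 8.45% of all genes tested. E2f7 and E2f3 followed at 0.12 and -0.076. Of 7 CDK inhibitor genes, 5 could be tested, 0 passed and 2 had an unadjusted p under 0.05 in edgeR's test, against 10.6% of all genes. Cdkn1b (p27) measured 45.0, 50.2 and 47.1 CPM in Etv6 R355X/+ and 45.8, 37.0 and 38.2 CPM in wild type (log2 fold change 0.23, SE 0.090, adjusted p = 0.413 in edgeR's quasi-likelihood test). Cdkn1a (p21) measured 32.3, 20.3 and 22.1 CPM in Etv6 R355X/+ and 17.4, 21.6 and 18.4 CPM in wild type (0.38, SE 0.16, adjusted p = 0.447 in the same test). The genotypes overlapped for both inhibitors, and Cdkn2d followed at 0.075. Cdkn2a was at 0 in all 6 libraries.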

How the data were processed

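Bulk RNA of sorted LSK cells was sequenced in 3 Etv6 R355X/+ and 3 wild-type libraries, grouped by their titles. The authors deposited unscaled expected counts per gene, made from mm10 alignments by STAR 2.7 and RSEM 1.31 after Trim Galore 0.60, as named in the submitters' processing notes. The deposited table calls the counting unstranded, and per the labels' protocols the cDNA was amplified by the single-primer method before shearing. The sources used here do not name read filters or an annotation release. The 92 spike-in rows, all at 0, were left out.

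Expected counts were rounded, filtered with filterByExpr, scaled by TMM and tested by genotype alone with the two-sided quasi-likelihood test of edgeR 4.0.16 under R 4.3.3. All 20646 genes tested were adjusted together by the Benjamini-Hochberg method at 0.05. Standard errors and 95% intervals come from that fit. CPM use TMM-scaled library sizes. Library deviations use log2(CPM + 0.5). Exon lengths and positions come from GENCODE M21. DESeq2 1.42.0 and limma 3.58.1 were alternatives. The scripts were tested on simulated data, in 5 draws with 200 changed genes each. The edgeR test recovered 53.7% of 1.5-fold, 85.4% of 2-fold and 99.1% of 4-fold changes. Of its calls 8.32% were false, at an adjusted threshold of 0.05.

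Members and lists were chosen with earlier results of these data known. Named by rule were genes with an unadjusted p under 0.05, the 3 highest and 3 lowest per length, the extremes of fold change, the most abundant of each role group, Cdk1, Ccnb1, Mki67 and Top2a; Plk1, Aurka, Birc5, Foxm1, Cdc25b, Ndc80, Racgap1 and other genes given by fold change were added after their values were seen. Printed windows were the named genes of smallest p with TTTGAA. No library was a duplicate of another (chi-square per gene between replicates 11.2 to 48.2). The labels do not say that replicates are separate animals, so p-values measure only the spread between these samples.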

Additional observations from a re-analysis of the deposited data

How the results depend on the processing

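No mitosis and spindle gene passed the adjusted threshold in 14 of the 16 alternatives. Pttg1 passed, as the 1 gene called, with DESeq2 (log2 fold change 0.40, adjusted p = 0.0154) and in edgeR without the count filter (0.40, adjusted p = 0.0407), where 4 genes of the list had an unadjusted p under 0.05 (share of all genes not given). Etv6 also passed in both (-0.31, adjusted p = 0.0446, and -0.30, adjusted p = 0.0111). Over all genes 336 passed with DESeq2, 527 without the filter, and 16 to 67 with one library left out. Genes of the list with an unadjusted p under 0.05 numbered 1 to 19 with one library left out (19 without wild-type replicate 3) and 18 without Etv6 R355X/+ replicate 1 and wild-type replicate 3 together; the cause was not tested. With the replicate number as a block 32 genes passed over all genes and 0 of the list. Replicate numbers did not pair the samples (correlations of deviations -0.035, -0.066 and -0.15; 0 of 6 samples correlated best with their own number).

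Small fold changes changed sign, and 0 of these values passed. With library size alone, which shifted the median of all genes by -0.036, Cdc25c was -0.0095, Bub1b -0.0036, Ube2c -0.014 and Kif11 -0.0073. Espl1 was 0.0081 with limma-voom. Without Etv6 R355X/+ replicate 1 and wild-type replicate 3 together, Cdk1 was 0.058, Ccnb1 0.095, Espl1 0.059, Aurkb 0.039 and Kif20b 0.056. With one library left out, log2 fold changes ran over -0.14 to 0.084 for Cdk1, -0.19 to 0.14 for Ccnb1, -0.045 to 0.14 for Cdc25c, -0.037 to 0.18 for Bub1b, -0.086 to 0.22 for Ube2c, -0.12 to 0.14 for Espl1, -0.15 to 0.060 for Aurkb, -0.047 to 0.21 for Cenpe, -0.038 to 0.14 for Kif11, -0.11 to 0.072 for Kif20b and -0.033 to 0.18 for Mki67. Depth limits little here, since the lowest CPM of any of the 50 genes was 14.0.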
